A study of Rattus norvegicus with 27 samples.

Results

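Nonsense-mediated decay is the surveillance pathway that removes mRNAs carrying a premature stop codon, and 9 of its core factors were followed in the medial prefrontal cortex (mPFC) of resting rats. The members were the 9 genes Upf1, Upf2, Upf3a, Upf3b, Smg1, Smg5, Smg6, Smg8 and Smg9, taken by symbol from the 36865 rows of the raw count table. They were chosen with earlier results of these data known. Upf2 and Upf3b are the 2 of them that the study itself names, as genes related to anxiety in these same data. Reads fell on 5 of the 9 members (Upf2, Upf3a, Upf3b, Smg6 and Smg9), and 4 were listed at 0 in all 27 libraries (Upf1, Smg1, Smg5 and Smg8).

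The data are 27 single-read libraries of polyA RNA, 1 per adult male Wistar rat, and every library belongs to the same group. All rats had been tested repeatedly in the elevated plus-maze, the light-dark box and the open field. The sample labels also list learned helplessness, acoustic startle and fear conditioning for every rat, while the methods describe startle and fear conditioning in rats of another strain. The tissue was dissected from both hemispheres 2 weeks after the last test, in a resting state, so there is no untreated or control group and no genotype, drug or stress contrast. The anxiety scores of the rats were not used here. The rats were picked by a composite anxiety score from 2 cohorts, and which rat came from which cohort is not given in the sources used here. A homogenized tissue piece holds many cell types, so fewer cells of a type and less RNA per cell cannot be told apart in any value below.

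An exon junction complex left on an mRNA downstream of a stop codon marks that stop as premature. UPF3B (or its paralog UPF3A) sits on this complex and is joined through UPF2 to the helicase UPF1, which the kinase SMG1, held by SMG8 and SMG9, phosphorylates so that the endonuclease SMG6 and the adaptor SMG5 can act on the mRNA. In the brain the pathway trims many normal transcripts as well, and loss of UPF3B, whose gene is X-linked, causes intellectual disability in humans.

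The promoters of Upf2 and Upf3b are shown because these 2 genes were the pair of members whose levels went together across rats (below). They are the RefSeq promoter windows of the rat assembly GRCr8, 300 bases each, read 5′ to 3′ on the gene's strand. Capitals mark matches, on either strand, to the GC box (GGGCGG), the CCAAT box (CCAAT), the YY1 site (AAGATGGCG) and the ZNF143 site. The Upf2 window lies at chr17:77245165-77245464 and the Upf3b window at chrX:121218872-121219171, both on the minus strand.
Upf2: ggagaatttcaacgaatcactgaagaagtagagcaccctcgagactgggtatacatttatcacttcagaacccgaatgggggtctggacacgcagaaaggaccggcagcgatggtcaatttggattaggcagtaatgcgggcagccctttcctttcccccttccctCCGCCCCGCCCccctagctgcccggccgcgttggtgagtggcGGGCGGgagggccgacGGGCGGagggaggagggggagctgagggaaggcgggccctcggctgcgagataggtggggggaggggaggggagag
Upf3b: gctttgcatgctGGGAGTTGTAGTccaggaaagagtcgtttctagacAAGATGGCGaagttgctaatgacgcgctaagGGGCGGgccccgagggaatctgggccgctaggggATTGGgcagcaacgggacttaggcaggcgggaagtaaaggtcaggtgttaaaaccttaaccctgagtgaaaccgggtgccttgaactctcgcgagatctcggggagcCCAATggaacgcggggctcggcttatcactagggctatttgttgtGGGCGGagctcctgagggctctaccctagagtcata
The Upf2 window held 4 GC boxes, 2 of which overlap by their end base, and no match to the other 3 motifs. The Upf3b window held 2 GC boxes, 2 CCAAT boxes, 1 YY1 site and 1 ZNF143 site. Of all 33469 promoter windows in the table, 33.1% held a GC box, 37.5% a CCAAT box, 1.73% this YY1 site and 1.75% this ZNF143 site. Windows were found for 8 of the 9 members, and Upf3b was the 1 member of the 8 with the YY1 and ZNF143 letters. A TATA box (TATAAA), an ETS site (CCGGAAGT) and an NRF1 site, which were also searched, matched in 0 of the 8 windows.

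The zeros come first, because they limit what can be said of the pathway. Upf1, the helicase at its centre, and Smg1, the kinase that phosphorylates it, had 0 reads in each of the 27 libraries, as did Smg5 and Smg8. Of the 18323 protein-coding genes with a curated RefSeq transcript and a row in the table, 3737 (20.4%) were also at 0 in every library. Among them were Polr2a, the largest subunit of RNA polymerase II, which every cell uses and which was picked after its values were seen, and the interneuron marker Sst. In a single library a count of 0 allows a level of up to 3 counts by counting error alone. That is 0.235 to 0.611 CPM (counts scaled to the library total) at these depths, and 0 in all 27 libraries allows less on average. Since genes that all cells need were listed at 0 too, these 4 members are given as listed at 0, and nothing is said of their expression. Smg6 was split over 2 rows of the table, 1 of them at 0 throughout, and the row with reads was used.

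The depth of the libraries sets the error of what follows. Between 4907255 and 12771309 reads per library were counted on genes. The library numbers part these totals into 16 libraries numbered up to 31 (4907255 to 8568317 reads) and 11 numbered from 32 (9404220 to 12771309). What this split stands for is not given in the sources used here, and it cannot be told apart from a split between the cohorts. The relations between members are given within each block as well. Values are normalized counts, the reads divided by the library's median-of-ratios size factor, and tests used log2(normalized count + 1). Libraries 12 and 20 carried 19987 and 16899 normalized counts of the ribosomal RNA gene Rn18s, against a median of 1621, and libraries 3 and 19 had the lowest levels of excitatory neuron markers. Calls of members and member pairs are given without either pair where that changes them.

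Upf3b was the member that differed most between rats. UPF3B is the adaptor that reads the exon junction complex. Its mean was 575 ± 108 normalized counts (SD, n = 27), with the lowest value, 396, in library 17, a median of 547 and the highest, 864, in library 3. The second highest value, 778, was that of library 19, so the 2 libraries poorest in excitatory neuron markers held the 2 highest Upf3b levels. The SD of its log2 values was 0.26, at the 68.8th percentile of the 11730 genes tested (those whose mean was 10 counts or more). Most of this spread lay among the libraries up to 31, which ranged from 396 to 864 (SD 131), while those from 32 ranged from 454 to 630 (SD 48.7).

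Upf3a, the paralog that can take the place of UPF3B, was more even. Its mean was 794 ± 67.4 normalized counts (SD, n = 27), from 625 in library 12 through a median of 797 to 916 in library 3. Upf3a and Upf3b thus peaked in the same library. Reads on Upf3b came to between 0.526 and 0.943 of those on Upf3a in the same library (median 0.705), below 1 in all 27. This is a ratio of reads and not of transcripts, since no transcript lengths were used here and levels of different genes cannot be ordered.

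Upf2, the bridge between UPF3 and UPF1, had a mean of 530 ± 53.3 normalized counts (SD, n = 27). The lowest value, 387, was in library 47, the median was 532, and the highest were 622 in library 20 and 659 in library 22. The second lowest, 457, was in library 17, which had the least Upf3b, while the libraries highest in Upf3b were not those highest in Upf2. The SD of its log2 values was 0.15.

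Of the 2 measured SMG members, Smg6 was the steadiest of all 5 members and Smg9 varied about as much as Upf3a. Smg6, the endonuclease that cuts the target mRNA near the stop codon, had a mean of 430 ± 27.7 normalized counts (SD, n = 27), from 375 in library 18 through a median of 428 to 501 in library 51. Its log2 SD of 0.09 stood at the 5.06th percentile of all genes tested. Smg9, part of the complex that holds SMG1, had a mean of 338 ± 29.8 normalized counts (SD, n = 27), with 292 in library 5 as the lowest, a median of 338 and 403 in library 54 as the highest. Its log2 SD was 0.13, against 0.12 for Upf3a. Of the 5 measured members, 4 had a log2 SD under the median of all genes (0.19), and Upf3b was the exception.

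**Figure D1:**
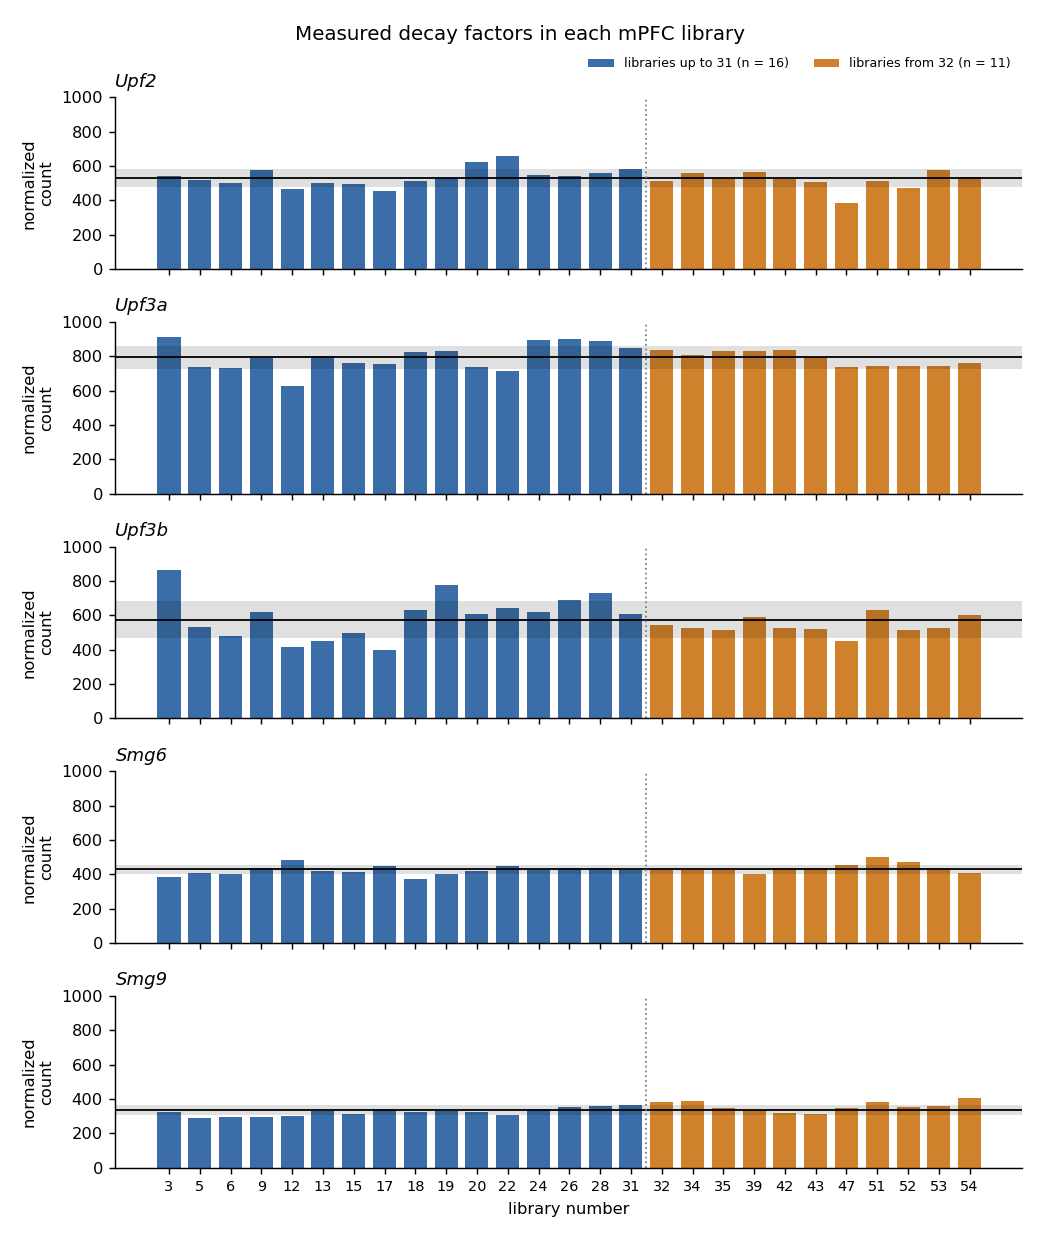
Normalized counts (vertical axes, starting at 0) of the 5 measured members in each of the 27 mPFC libraries, ordered by library number (horizontal axis) and coloured by block; the black line is the mean and the grey band 1 SD over the 27. Upf3b ranges from 396 to 864, while Smg6 stays between 375 and 501.

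All 5 measured members varied between rats by more than counting alone gives (Poisson dispersion test by chi-square, adjusted over 11730 genes). This was so for 89.8% of all genes tested, so the call sets no member apart. Adjusted p was 3.08e-80 for Upf3b, 1.31e-19 for Upf2, 1.29e-16 for Upf3a and 0.0107 for Smg6. The share of the variance that counting alone would give was 5.17% for Upf3b, 18.02% for Upf3a, 19.2% for Upf2, 38.7% for Smg9 and 57.1% for Smg6. Without library 51, the one with the most Smg6, 4 of the 5 members were called.

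The members were then set against each other across the 27 rats. The 10 pairs of measured members gave rho from -0.32 to 0.65 with a median of 0.15, and 7 of the 10 were above 0. Over all pairs of tested genes the median was -0.005. Each member was tested against all 11729 other genes by permutation of the libraries (two-sided, 100000 permutations), and p was adjusted over all 58645 relations, so the p of a pair is not adjusted over the pairs alone. With that adjustment 1 of the 10 pairs was called by rho, Upf2 with Upf3b.

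Upf2 and Upf3b rose together. Of the 13 libraries above the median of Upf2, 10 were above the median of Upf3b, and of the 13 below it, 10 were below. Spearman's rho was 0.653 (permutation p = 0.00034, adjusted p = 0.0252) and Pearson's r 0.570 (permutation p = 0.00172, adjusted p = 0.0259). Of all genes tested, 0.477% were called with rho above 0 for Upf2 and 3.37% for Upf3b. Of all pairs of tested genes, 1.21% had a rho at or above this one. Leaving out libraries 22 and 47, farthest from the median of Upf2, gave rho 0.599 and r 0.561.

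The call of this pair depended on the libraries and, with the block regressed out, on the measure. Within the libraries up to 31 rho was 0.600 (n = 16, permutation test, adjusted p = 0.155) and within those from 32 it was 0.455 (n = 11, permutation test, adjusted p = 0.912), and with the block regressed out of both genes it was 0.563 (permutation test, adjusted p = 0.0695), where r was still called (0.550, permutation test, adjusted p = 0.0348). Without libraries 12 and 20 rho was 0.626 and r 0.544 (permutation tests, adjusted p = 0.0654 and 0.0589). Without library 12 alone rho was 0.613 (permutation test, adjusted p = 0.0586), and without library 17 it was also 0.613 with adjusted p = 0.0473. The call by rho held without each of the other 26 libraries, library 17 among them. By r it was lost without library 12 or library 17. Leaving out libraries 3 and 19 gave rho 0.710 (permutation test, adjusted p = 0.0331), and regressing out the excitatory neuron score described below gave rho 0.752 (adjusted p = 0.0138). The study listed both genes as rising with the same summary score of the elevated plus-maze in these same rats. Their common movement is thus not independent evidence of a relation with anxiety. Nor was the pair picked free of these values, so its rho and p are not those of a pair picked without them.

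**Figure D2:**
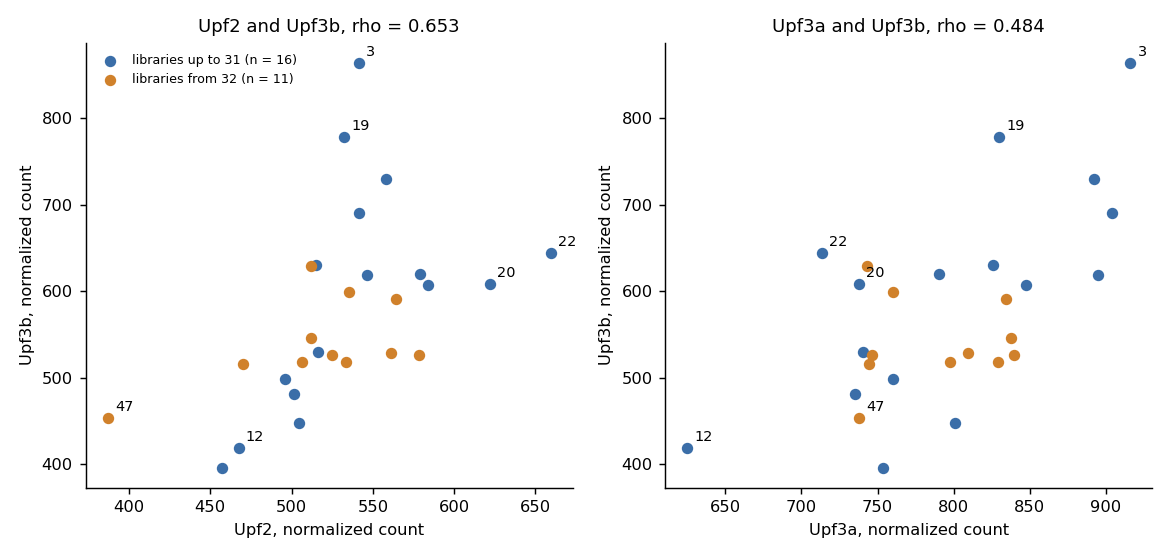
Normalized counts of Upf2 (left, horizontal axis) and Upf3a (right, horizontal axis) against those of Upf3b (vertical axes) in the 27 libraries, each point 1 rat, coloured by block, with 6 libraries numbered. Upf2 and Upf3b go up together (rho 0.653) without libraries 3 and 19 being extreme for Upf2, while in the right panel library 3 is the highest for both genes and library 12 is the lowest for Upf3a.

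Upf3a and Upf3b, the paralogs, also leaned together, but the call depended on the measure. Spearman's rho was 0.484 (permutation p = 0.0113, adjusted p = 0.114), while r was 0.610 (permutation p = 0.00076, adjusted p = 0.0163). By r, 9.13% of all genes were called above 0 with Upf3b and 4.93% with Upf3a. Without libraries 3 and 12, farthest from the median of Upf3a, r fell to 0.445 and rho to 0.356. The call by r was lost without library 3 alone, without libraries 3 and 19 (r 0.542, permutation test, adjusted p = 0.0906) and with the excitatory neuron score regressed out (r 0.443, permutation test, adjusted p = 0.203), with rho at 0.422, 0.393 and 0.393 in these 3 settings. The call by r held without libraries 12 and 20 and with the block regressed out (permutation tests, adjusted p = 0.0367 and 0.0492). Spearman's rho was 0.618 in the libraries up to 31 and 0.245 in those from 32 (permutation tests, adjusted p = 0.137 and 0.951). No opposite movement of the paralogs was seen in any of these settings. UPF3A is known to rise at the protein level when UPF3B is lost, a setting that these rats do not offer.

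The remaining 8 pairs did not pass the adjustment by either measure. Upf2 with Upf3a had rho 0.314 (permutation test, adjusted p = 0.357). Upf3a with Smg9 had 0.339 over all libraries, 0.709 in the libraries up to 31 and -0.318 in those from 32 (permutation tests, adjusted p = 0.310, 0.0662 and 0.936), and the difference between the blocks was not tested. Smg6 had rho below 0 with each of the 3 UPF members: -0.179 with Upf2, -0.324 with Upf3a and -0.237 with Upf3b, with adjusted p between 0.339 and 0.648 (permutation tests). With Upf3a and Upf3b it was below 0 in both blocks, but with Upf2 it was 0.171 in the libraries up to 31 and -0.709 in those from 32 (permutation tests, adjusted p = 0.784 and 0.866). Smg6 with Smg9 also had opposite signs in the blocks (0.147 and -0.055).

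**Figure D3:**
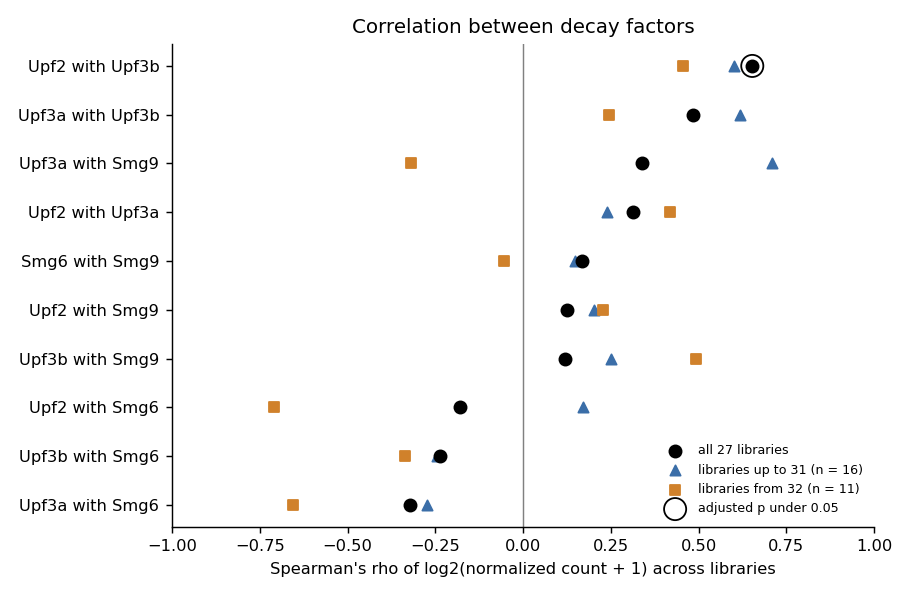
Spearman's rho of log2(normalized count + 1) for the 10 pairs of measured members, over all 27 libraries (black), the 16 up to 31 (blue triangles) and the 11 from 32 (orange squares); a ring marks an adjusted p under 0.05. Upf2 with Upf3b is the 1 ringed pair, and Upf3a with Smg9 changes sign between the blocks (0.709 and -0.318).

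The likeness of other genes to Upf3b was read over those with a mean of 50 normalized counts or more. The highest rho with Upf3b belonged to Rbm8a, which encodes the exon junction core protein Y14. Rbm8a had r 0.871 (0.809 without libraries 3 and 19) and rho 0.874 over the 27 libraries, 0.935 in those up to 31 and 0.800 in those from 32 (permutation p = 1e-05, the smallest the permutations can give, and adjusted p = 0.0105 over all libraries). Of the 13 libraries above the median of Upf3b, 12 were above that of Rbm8a. The relation was called without each of the 27 libraries in turn (rho 0.859 to 0.915) and with the excitatory neuron score regressed out (rho 0.783, permutation test, adjusted p = 0.0115); among the 11 libraries from 32 alone it was not called (adjusted p = 0.810).

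After Rbm8a came U2af1, which recognises the 3′ splice site (rho 0.863), Ccdc34 (0.856), Ppig, a nuclear cyclophilin with a splicing-factor-like tail (0.852), and Ift20, of intraflagellar transport (0.848). The lowest rho were those of Adcy2, an adenylyl cyclase (-0.808), Rptor, the scaffold of the growth kinase complex mTORC1 (-0.802), Pde4b, which degrades cAMP (-0.801), Arf3 (-0.792) and Tmem63c (-0.778). All 10 had the smallest permutation p (1e-05). Spearman's rho of the 5 opposed genes was between -0.909 and -0.850 in the libraries up to 31 and between -0.491 and -0.145 in those from 32. The calls also went with gene length. Genes called above 0 with Upf3b spanned a median of 11.7 kb on the genome and those below 0 52.7 kb, against 23.7 kb for all genes tested. These medians were 27.9 and 38.6 kb with Upf2, 6.83 and 62.4 kb with Upf3a, and 15.4 and 38.9 kb with Smg9. With Smg6 they were reversed, at 39.6 and 6.48 kb. What this stands for was not tested.

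The genes closest to Upf2 were Nsrp1, a nuclear speckle protein that regulates splicing (rho 0.771), a row whose gene ID was not matched in the RefSeq table used (0.767), Ppig again (0.738), Ccdc25 (0.736) and Commd8 (0.717), with adjusted p between 0.0105 and 0.0156 (permutation tests). Ppig was thus near the top for both genes of the pair. Nsrp1 and Ppig are also on the study's list for the summary score of the elevated plus-maze, as are Upf2 and Upf3b. All of them rise with that score in these same rats, so their likeness is not independent of that list. Opposite to Upf2 went Slc7a5, the large neutral amino acid transporter (-0.728), St3gal2, a sialyltransferase (-0.662), the clock gene Per2 (-0.642), Get1 (-0.640) and Trim3, a ubiquitin ligase (-0.620). Of these 5, Trim3 had the lower rho in the libraries from 32 (-0.800, against -0.538 up to 31). The other 4 were between -0.894 and -0.732 up to 31 and between -0.418 and -0.327 from 32.

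Few of the other genes of the pathway were called with the members. The list held 34 genes (exon junction core and periphery, release factors, decapping, cap-binding and SMG1-complex helper genes), of which 31 were tested and Nbas, Dcp1b and Dcp2 were at 0 in all libraries. With Upf3b, 3 of the 31 were called with rho above 0 and 0 below, against 3.37% and 2.89% of all genes. They were Rbm8a, Sap18 (rho 0.692, permutation test, adjusted p = 0.0187) and Acin1 (0.606, permutation test, adjusted p = 0.0366), the last 2 being partners in a peripheral complex on the exon junction; Sap18 and Acin1 were named after their values were seen. The median rho of the list with Upf3b was 0.147, against -0.00855 over all genes. By r, 4 of the 31 were called above 0 and 4 below, against 9.13% and 11.1% of all genes. Not all exon junction genes went this way: Casc3, a core component, had rho -0.482, and Eif4a3, the core helicase, 0.327, neither past the threshold by rho (permutation tests, adjusted p = 0.117 and 0.328). By r, Casc3 was among the genes called with Upf3b. Without libraries 3 and 19, or with the excitatory neuron score regressed out, only Rbm8a of the 3 was called.

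With Upf2, 0 of the 31 pathway genes were called by the permutation test of rho (4 at an unadjusted p under 0.05) and 0 by r, against 0.477% of all genes called above 0 and 0.111% below. The highest rho with Upf2 were Rbm8a (0.480), Pnrc2, which links UPF1 to decapping (0.477), and Rnps1, a peripheral exon junction protein (0.391). The lowest were Gspt2, a release factor (-0.501), Dcp1a, a decapping cofactor (-0.344), and Casc3 (-0.294). The median was 0.0830, against -0.0147 over all genes. For the other members single genes were called, all named after their values were seen. Gspt2 had rho -0.752 with Upf3a (permutation test, adjusted p = 0.0105; 2.32% of all genes were called below 0 with Upf3a and 1.57% above). Pnrc2 had rho -0.596 with Smg6 (permutation test, adjusted p = 0.0415; background 1.36% below 0 and 0.767% above). Mov10, an RNA helicase, had rho 0.587 with Smg9, and Cnot1, the scaffold of the deadenylase complex, -0.583 (permutation tests, adjusted p = 0.0457 and 0.0487; background 3.7% above 0 and 2.35% below). By r, 1 of the 31 was called above 0 and 4 below with Upf3a, against 4.93% and 6.62% of all genes, and these 5 were Casc3, Ruvbl2, Stau2, Xrn1 and Gspt2. With Smg6, 0 were called above 0 and 2 below by r (Magoh and Pnrc2), against 4.3% and 5.75% of all genes. With Smg9 it was 1 above and 1 below (Mov10 and Cnot1), against 6.39% and 3.72%. These counts are near the background.

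The second list held 22 genes whose mRNAs are known from other work as substrates of the pathway, and 18 were tested. Tbl2 was at 0 and 3 had no row. With Upf3b, 4 of the 18 were called with rho above 0 and 0 below (against 3.37% and 2.89% of all genes), and 14 of the 18 had rho above 0, as did 15 with Upf2, 15 with Upf3a, 10 with Smg9 and 2 with Smg6. The 4, named after their values were seen, were Atf3, a stress-induced transcription factor (rho 0.643), Tra2a, a splicing regulator (0.642), the non-coding RNA Gas5 (0.593) and the splicing factor Srsf2 (0.589), with adjusted p between 0.0261 and 0.0448 (permutation tests). The median rho of the list with Upf3b was 0.451, against -0.00855 over all genes. By r, 8 of the 18 were called above 0 and 2 below, against 9.13% and 11.1% of all genes. These counts were not stable. Without libraries 12 and 20 only Atf3 was called, with the block regressed out only Tra2a, and without libraries 3 and 19 or with the excitatory neuron score regressed out 0 of the 18, where the median rho was 0.365 and 0.101.

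With Upf2, 0 of the 18 substrates were called by rho (3 at an unadjusted p under 0.05) and 1 by r, Gadd45a, against 0.605% of all genes called above 0 by r and 0.179% below. Gadd45a, a growth arrest gene, had the highest rho with Upf2 (0.551), followed by the stress gene Ddit3 (0.425) and Tra2a (0.383). The lowest belonged to Dlg4, which encodes the postsynaptic scaffold PSD-95 (-0.457), Robo3 (-0.160) and Ptbp2, a neuronal splicing repressor (-0.139). Upf3a, Smg6 and Smg9 called 0 of the 18 by rho (5, 5 and 3 at an unadjusted p under 0.05) and 2, 2 and 0 by r. By r, 4.93% of all genes were called above 0 and 6.62% below with Upf3a, 4.3% and 5.75% with Smg6, and 6.39% and 3.72% with Smg9. The list's median rho was 0.171 with Upf2, 0.209 with Upf3a, -0.214 with Smg6 and 0.0598 with Smg9.

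**Figure D4:**
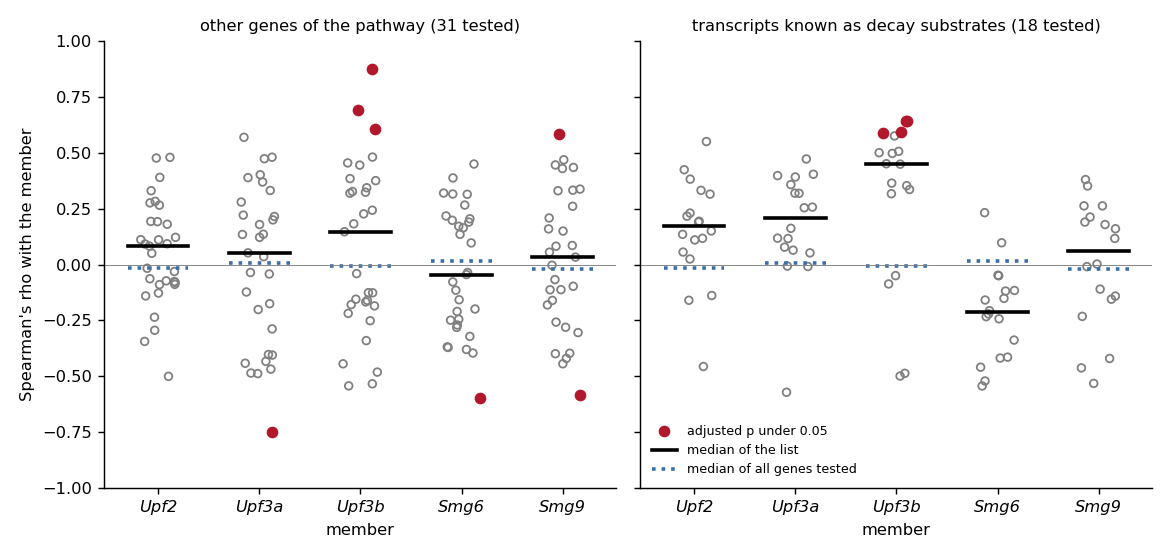
Spearman's rho across the 27 libraries of each gene in the pathway list (left, 31 genes) and the substrate list (right, 18 genes) with each of the 5 measured members; filled red points have an adjusted p under 0.05, the black bar is the median of the list and the dotted bar that of all genes tested. With Upf3b the substrate median is 0.451, and 4 substrates and 3 pathway genes are called above 0.

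Upf3b moved against the markers of excitatory neurons. The score of a cell type is the mean z score of its markers, scaled to an SD of 1 over the libraries, and entered edgeR's quasi-likelihood test as a covariate. Upf3b fell by 0.19 on the log2 scale per SD of the excitatory neuron score (SE 0.03, adjusted p = 4.87e-05), and Upf3a fell by 0.06 (SE 0.02, adjusted p = 0.0431). Of all genes tested, 32.1% were called with this score (16.4% lower and 15.7% higher), a share that rested on 2 libraries, being 12.0% without library 3 and 4.83% without libraries 3 and 19. The values per SD were -0.01 for Upf2, 0.04 for Smg6 and 0.01 for Smg9, none past the threshold.

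The 6 markers summed to 12156 normalized counts in library 3 and 14093 in library 19, and to between 15759 and 22916 in the other 25, and 0 of the 6 were at 0. In library 3 Slc17a7, the vesicular glutamate transporter, stood at 7479 against 9571 to 13608 in the other 25, and Tbr1, a deep-layer transcription factor, at 260 against 357 to 717. Neurod6, at 1229, lay inside the range of the others. Library 3 also had the highest oligodendrocyte score (2.50), an astrocyte score of 2.04 and an inhibitory neuron score of -1.95. In library 19 the oligodendrocyte score was -0.50 and the astrocyte score 0.07. Its Camk2a (3471), Neurod6 (1119) and Neurod2 (606) lay inside the range of the other 25. Among the markers, Tbr1 had rho -0.687 with Upf3b and Slc17a7 -0.613 (permutation tests, adjusted p = 0.0198 and 0.0369). Neurod6 had rho 0.154. Spearman's rho of Upf3b with the score was -0.650 over all libraries, -0.806 in those up to 31 and -0.218 in those from 32. Without each library in turn the log2 change of Upf3b per SD was between -0.20 and -0.18 with adjusted p up to 0.00443 (edgeR); without both library 3 and library 19 it was -0.21 (edgeR, adjusted p = 0.0520). For Upf3a the call was lost without any 1 of 16 of the 27 libraries, without libraries 12 and 20 and without libraries 3 and 19 (edgeR, adjusted p = 0.123 and 0.354), and its rho with the score was -0.600 in the libraries up to 31 and 0.345 in those from 32. The part of the cell makeup of the tissue piece in the levels of Upf3b was not tested.

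**Figure D5:**
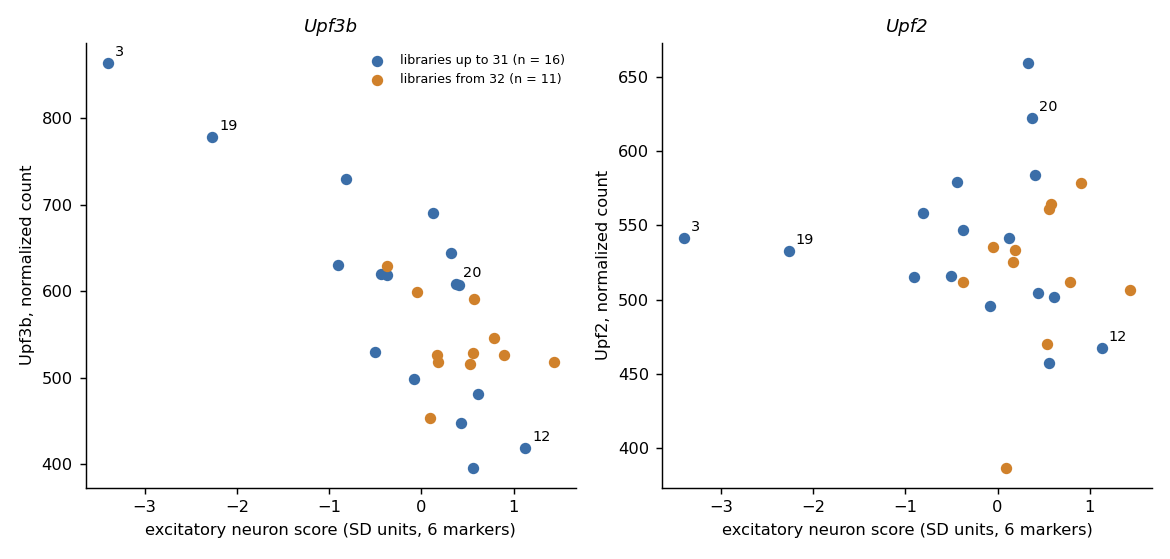
Normalized counts of Upf3b (left) and Upf2 (right) against the excitatory neuron score (horizontal axes, in SD units over the 27 libraries, from 6 markers), each point 1 library, coloured by block. Libraries 3 and 19, with scores of -3.40 and -2.27, hold the 2 highest Upf3b levels, 864 and 778, but lie in the middle of the range for Upf2.

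Over the 27 libraries no member was called with the scores of oligodendrocytes, astrocytes, microglia, meningeal fibroblasts, endothelial cells, inhibitory neurons, immediate early genes or striatal tissue, or Rn18s. Of the 45 relations of the 5 members with these 9 measures, 0 were called by edgeR or by DESeq2, and 1 had an unadjusted p under 0.05 by edgeR (Smg6 with the striatal score, 0.04 per SD) and 2 by DESeq2. Within the blocks some of these relations differed in sign. Upf3b had rho 0.818 with the immediate early score in the libraries from 32 and -0.079 in those up to 31, and 0.673 and -0.479 with the inhibitory neuron score, and these differences were not tested. Of all genes, 1.65% were called in either direction with the oligodendrocyte score, 2.7% with the astrocyte, 0.719% with the microglia, 2.56% with the meningeal fibroblast, 0.274% with the endothelial and 2.79% with the inhibitory neuron score. The share was 0.134% for immediate early genes, and 0.0661% each for the striatal score and Rn18s. Without libraries 12 and 20 the inhibitory neuron share was 0 and that of Rn18s 1.45%, and without libraries 3 and 19 the share was 0 for inhibitory neurons, 1.51% for astrocytes and 0.124% for striatal tissue. With the block as a term it was 3.43% for oligodendrocytes, 5.49% for inhibitory neurons and 0.0330% for striatal tissue, and by DESeq2 1.38% for microglia, 5.56% for inhibitory neurons and 0.255% for striatal tissue. Of 300 relations of members with single markers outside the excitatory list, 4 (1.33%) were called, against 3.78% of the members' relations with all genes: Sox9, 1 of 8 astrocyte markers, with Upf3b (rho 0.667, where the astrocyte score had -0.020), S100b with Smg6 (-0.592), and Gad2 (-0.607) and Drd1 (-0.690) with Upf3a (permutation tests, adjusted p from 0.0187 to 0.0444).

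Between the blocks, Smg9 was the 1 member called. Its mean was 325 ± 23.2 (SD, n = 16) in the libraries up to 31 and 358 ± 28.7 (SD, n = 11) in those from 32, and the ranges overlapped (292 to 367 and 312 to 403). The log2 difference was 0.14 (SE 0.05, edgeR's quasi-likelihood test, adjusted p = 0.0348), where 8.85% of all genes were called higher from 32 and 9.18% lower, so 1 of 5 members is near the background. Smg9 was not called without libraries 12 and 20 (edgeR, adjusted p = 0.0722), nor without 9 of the 27 single libraries. The log2 differences were -0.14 for Upf3b (SE 0.10), -0.06 for Upf2 (SE 0.06), -0.02 for Upf3a (SE 0.05) and 0.05 for Smg6 (SE 0.04), none past the threshold. That of Upf3b was -0.09 without library 3 and -0.07 without libraries 3 and 19, and that of Upf2 -0.02 without library 47 and -0.04 without library 20. In the pathway list 1 of 31 genes was higher from 32 (Edc4, of decapping, 0.14) and 5 were lower: Pabpc1, the poly(A)-binding protein (-1.02), Magohb (-0.31), the release factors Etf1 (-0.25) and Gspt1 (-0.20), and Cnot1 (-0.14). In the substrate list 4 of 18 were lower (Srsf3, Atf4, Tra2b and Srsf7) and 0 higher. The genes of these counts were named after their values were seen.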

How the data were processed

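The authors deposited raw counts, the reads counted on each NCBI gene ID in each library; per the labels the tools were Trimmomatic, STAR and HTSeq, and versions, genome build, annotation and strand setting are not given in the sources used here. The library kit is TruSeq in the labels and NEBNext Ultra II in the methods. Without strand, reads of overlapping antisense genes cannot be told apart, and those of close paralogs are uncertain. IDs were named from RefSeq (GRCr8), which matched 28157 of 36865 rows. The members and gene lists were chosen with earlier results of these data known, and the genes named follow a rule (all members; per list the 3 highest and 3 lowest rho with Upf2; overall the 5 highest and 5 lowest with Upf2 and with Upf3b), with exceptions stated. Libraries are separate rats per the labels.

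Counts were scaled by DESeq2's median-of-ratios size factors (DESeq2 1.42.0). The 11730 genes averaging 10 counts or more were tested on log2(value + 1), which understates changes of low genes. Correlations used 100000 two-sided permutations, and covariate fits edgeR's quasi-likelihood test (edgeR 4.0.16, filterByExpr, TMM), with Benjamini-Hochberg adjustment and a threshold of 0.05; the SE is the log2 change divided by the root of F. Tests were tried on simulated counts first. Alternatives were other scalings, filters and pseudocounts, DESeq2's Wald test, leaving out libraries, and the depth block as a term. Promoter windows and motif shares came from the RefSeq table. Intervals, floors and noise cover counting error only, as reads carry no molecular identifiers. Scripts ran in Python 3.11.15 (scipy 1.17.1, numpy 2.4.6, pandas 2.3.3) and R 4.3.3. The relation of 1 excitatory neuron marker with the members is not reported here.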

Additional observations from a re-analysis of the deposited data

How the results depend on the processing

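The mean levels of the 5 measured members, the number of genes called between the blocks (1808 to 2471 without single libraries, 2112 in all) and those varying beyond counting (10358 to 10542 without single libraries, 10537 in all) changed little in every alternative run (levels by less than 1 SD, counts by less than 1.5 times). The 1 called pair of members, Upf2 with Upf3b, kept its direction but not its call: rho was 0.626 without libraries 12 and 20, 0.563 with the block regressed out, 0.600 in the libraries up to 31 alone and 0.455 in those from 32 alone, and 0 of 10 pairs were called by rho in each of these 4 settings. By r, 2 pairs were called in all libraries and 2 with the block regressed out (Upf2 with Upf3b and Upf3a with Upf3b). Without libraries 12 and 20 it was 1 (Upf3a with Upf3b). Within either block 0 were called, with r of Upf2 with Upf3b at 0.608 up to 31 and 0.595 from 32. The last 2 settings, the removal of libraries 3 and 19 and the excitatory neuron score as a term were chosen after the data were seen, as were leaving out single libraries for the excitatory neuron score and recounting the gene lists under each alternative. With a mean count of at least 1, 2 of the 18 substrates were called with Upf3b in place of 4, and with total counts 6. Without single libraries rho ranged from 0.613 to 0.694, 0 to 1 of the 10 pairs were called, the median rho of the 10 pairs ranged from 0.0728 to 0.227, and 4 to 5 of the 5 members varied beyond counting. Other scalings (edgeR's TMM, total counts, size factors from genes with a mean of at least 10), a pseudocount of 0.1 and a mean count of at least 1 changed no call of a pair by rho or by r. Of the 50 relations of members with marker scores, 2 were called, 1 without libraries 12 and 20 and 0 without libraries 3 and 19. The block difference of Upf3a, -0.02 in all libraries, turned to 0.0030 without libraries 3 and 19, and across single libraries it ranged from -0.0371 to 0.0056, turning without library 3 (0.0056), library 24 (0.0031) or library 47 (0.0013), each near 0. The cause of these changes was not tested. No paired analysis was possible because all libraries belong to 1 group. At 4907255 to 12771309 reads a library, counting noise limits Smg6 and Smg9 most.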
